A study of Picea abies with 36 samples.

Results

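Adding the auxin IAA (indole-3-acetic acid) to the cytokinin BAP (benzylaminopurine) changed 9662 of the 38239 gene models tested in Norway spruce hypocotyls 5 days after application, 25.3% of them. The comparison rests on 6 of the 36 libraries of the series, 3 from seedlings given BAP+IAA and 3 from seedlings given BAP, chosen by treatment and day. The columns of the count table carry a collection number from 1 to 3, read here as the order of the days. The hypocotyl is the stem below the cotyledons. Seedlings of Picea abies about 2 weeks old, raised in a phytotron, received a single dose in lanolin on the middle of the hypocotyl and were collected after 5, 10 or 15 days. The BAP+IAA group received 135 mM BAP and 50 mM IAA, and the BAP group 135 mM BAP, so both groups carried the cytokinin and differed in the auxin. For comparison, BAP+IAA was set against BAP at 10 and at 15 days, and IAA (50 mM) against Mock at 5 days, again with 3 libraries a side. Nothing in the labels tells whether the 3 replicates were grown or harvested apart, so the spread behind each p-value may be a technical one. They also give no seed source or genotype, and do not say what the Mock dose held.

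As worked out mainly in Arabidopsis, auxin acts by promoting the destruction of Aux/IAA repressor proteins, which frees auxin response factors to change transcription, while cytokinin is read by membrane histidine kinases that pass phosphate to nuclear response regulators. In many plants the ratio of the hormones decides whether cut or treated stems form roots, shoots or callus, and each hormone alters the synthesis, transport or breakdown of the other. In stems auxin also feeds cell expansion and the vascular cambium. The table names gene models by identifier alone and the identifiers are not paired with gene names here. No auxin or cytokinin gene could therefore be looked up, the tissue label could not be checked against marker genes, and no sequence is shown. Results are given for groups of models and for 4 models by identifier. Since bulk hypocotyl tissue was sequenced, fewer cells of a type and less RNA per cell cannot be told apart.

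The 6 libraries separated by treatment. They held 14663344, 15916203 and 19509460 reads with BAP+IAA and 12531117, 16106687 and 14795646 reads with BAP. Across genes, log2 levels correlated at r = 0.965 to 0.975 within a group and at 0.891 to 0.931 between the groups. Genes are not independent replicates, so these values describe the libraries. The first principal component of the 6 libraries held 64.0% of the variance, with BAP+IAA libraries at -75.2, -89.8 and -108 and BAP libraries at 114, 86.1 and 72.9. Replicates differed by more than sampling noise, with a chi-square per degree of freedom of 7.87 to 12, so none was counted as a repeat deposit.

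Of the 9662 models called (edgeR quasi-likelihood test, adjusted p under 0.05), 5200 were higher with BAP+IAA than with BAP (13.6%) and 4462 were lower (11.7%). Levels are given as CPM, the deposited counts per library size after TMM scaling. All 3 BAP+IAA libraries lay above all 3 BAP libraries at 4941 of the higher models, and below them at 4131 of the lower models. Among all tested models, called or not, the groups did not overlap at 20% in the upward and 18.1% in the downward direction. Which direction held more models depended on the scaling: scaled by total counts, 4479 were higher and 5602 lower. The choice shifted the median log2 difference of all models by -0.063.

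Over all called models rises were larger than falls, though not among the most abundant. The median called model was 2.27-fold higher or 1.77-fold lower, and the 90th percentile was 13.3-fold for rises and 5.00-fold for falls. Below 2-fold the falls were in the majority, with 2681 falls against 2322 rises. At 2-fold or more, 2878 models were higher and 1781 lower. At 4-fold or more the numbers were 1594 and 612, and at 16-fold or more 426 and 78. With total counts these pairs became 2682 and 2053, 1523 and 662, and 404 and 82, so large rises outnumbered large falls under both scalings. Folds were taken from the summed reads of each group, with a group under 3 reads set to 3.

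**Figure D1:**
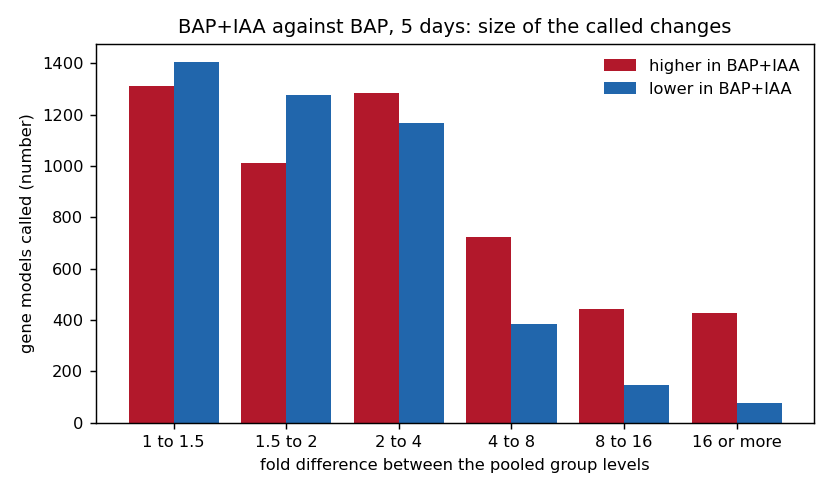
Number of gene models called in BAP+IAA against BAP at 5 days, by size of the fold difference between pooled group levels, with red bars for models higher and blue bars for models lower in BAP+IAA. Falls outnumbered rises below 2-fold, and rises outnumbered falls in every class from 2-fold up, with 426 against 78 models at 16-fold or more.

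The share of models called grew with the number of reads behind them. Of 7348 models averaging under 1 CPM over the 6 libraries, 7.23% were called higher and 4.83% lower. Between 10 and 100 CPM these shares were 18.5% and 16.1% of 12336 models, and between 100 and 1000 CPM 30.1% and 20.7% of 1833 models. The median called rise was 7.73-fold below 1 CPM and 1.48-fold between 100 and 1000 CPM. The median called fall was 5.94-fold below 1 CPM, 1.46-fold between 100 and 1000 CPM and 1.80-fold among the 56 models above that, where the median rise was 1.42-fold. Whether models with few reads changed more, or only their large changes were called, was not tested. CPM is not divided by gene length, so the classes order models by reads and not by transcripts.

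The called sets took different shares of the reads in the treatments. The models called higher took 30.7, 31.4 and 33.1% of all reads in the BAP+IAA libraries, against 18, 18.7 and 19.1% in the BAP libraries. Those called lower took 14.4, 14.5 and 13.5% with BAP+IAA and 26.7, 24.2 and 24.8% with BAP. These libraries chose the sets, so the shares describe them and test nothing.

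Models were next sorted by whether one treatment gave no read at all. At 167 models no BAP library held a read while every BAP+IAA library held at least 3, and at 33 models the reverse was found. The BAP+IAA group was sequenced more deeply, with 50089007 reads over its 3 libraries against 43433450 in the BAP group, in which 3 reads correspond to 0.066 CPM. With at least 10 reads asked of every library the numbers were 65 and 3. Leaving out a library loosens the rule, and the first number was then 196 to 274 (267 and 274 without BAP replicate 2 or 3) and the second 53 to 70, above 1.5 times its value whichever library was left out. Of the 167 models 145 passed the filter on low counts and 117 were called, and of the 33 models 27 passed and 24 were called.

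In the libraries that did not choose them, the 167 models were read more often with IAA alone than in Mock on each day, and BAP libraries held reads of many of them on later days. Models chosen for no read in BAP at 5 days can hold reads in other BAP libraries by the choice alone. At 5 days 103 of them had no read in Mock and 35 had none with IAA alone. Every IAA library held at least 3 reads at 60 of them, and every Mock library at 1. At 28 models neither IAA nor Mock held a read at 5 days, so that reads were seen with the combination alone on that day. At 10 days every BAP+IAA library held at least 3 reads at 112 of the 167 models and every BAP library at 4. At 15 days these numbers were 117 and 32. Models without a read numbered 1 in BAP+IAA and 66 in BAP at 10 days, and 5 in BAP+IAA and 25 in BAP at 15 days. With IAA alone 40 and 34 had no read on those days, against 91 and 99 in Mock. The 33 models without a read in BAP+IAA were read in Mock at 5 days with a single exception, and every Mock library held at least 3 reads at 20 of them. With IAA alone 16 of the 33 had no read, and every IAA library held at least 3 reads at 2.

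The levels of 4 models were followed in every library: the largest rise and fall by fitted log2 change and in CPM. They were picked among called models with at least 1 CPM and groups that did not overlap. Their calls and the lack of overlap at 5 days thus follow from the choice. Where a group holds no read, the fitted value depends on the prior count and its rank is not a rank of folds. MA_459474g0010, with the largest fitted log2 rise, was at 59.4, 13.8 and 14.8 CPM with BAP+IAA and had no read in any BAP library. Replicate 1 was the highest of the combination. The level with BAP+IAA was at least 417-fold higher than the limit of 3 reads over the BAP group (edgeR adjusted p = 0.00011), and at least 217-fold higher without replicate 1. In a fit of only the groups of the contrast the call was near the threshold (edgeR adjusted p = 0.049). With IAA alone 1 read was found at 5 days and in Mock none, so a fold without BAP cannot be given. At 10 days this model held 161, 420 and 241 CPM with BAP+IAA, from 12861 reads, against 3 reads over the BAP group. At 15 days it held 68.9, 29.8 and 140 CPM with BAP+IAA and averaged 5.48 ± 6.75 CPM with BAP (SD, n = 3). It was called higher on both later days (edgeR adjusted p = 6.3e-07 and 0.00076).

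MA_10103038g0010 had the largest rise in CPM. It was at 2745, 2978 and 2955 CPM with BAP+IAA, against 644, 360 and 906 CPM with BAP. Its log2 change was 2.18 ± 0.46 (SE derived from the F statistic; edgeR adjusted p = 0.00079), or 4.65-fold. IAA alone gave 2784, 2867 and 2404 CPM, against 60.3, 61.1 and 156 CPM in Mock, a 28.0-fold rise. The level with both hormones was thus near the level with IAA alone, while BAP alone stood 6.43-fold above Mock. The effect of IAA was smaller in the presence of BAP, with a log2 difference of -2.67 ± 0.64 (SE; edgeR adjusted p = 0.0044). On day 10 BAP+IAA averaged 2816 ± 353 CPM and BAP 1518 ± 378 CPM. On day 15 BAP+IAA averaged 1912 ± 309 CPM and BAP 1820 ± 344 CPM (SD, n = 3 each). The later differences did not pass the threshold (log2 change 0.89 ± 0.44 and 0.07 ± 0.44, edgeR adjusted p = 0.16 and 0.94). The change of the effect between 5 and 15 days missed it as well (edgeR adjusted p = 0.058).

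MA_213142g0010 had the largest fitted log2 fall, again against a group without a read. No BAP+IAA library held a read of it, while the BAP libraries held 48, 63 and 9 reads, or 3.69, 3.66 and 0.592 CPM. It was at least 44.0-fold lower with BAP+IAA (edgeR adjusted p = 0.032). The call was lost when any library other than BAP replicate 3 was left out (adjusted p = 0.069 to 0.096). In the fit of only the groups of the contrast, this model did not pass the filter on low counts and was not tested. In the main fit it passed that filter only through libraries outside the comparison. IAA alone lowered it too, to 0.145 ± 0.00732 CPM, against 29.3 ± 25.2 CPM in Mock (SD, n = 3 each; edgeR adjusted p = 3.2e-06). BAP libraries lay on average between these groups, but Mock replicate 2, at 1.77 CPM, lay within the BAP range. On day 10 the BAP+IAA group held 6 reads and the BAP group 119, and the fall was not called (edgeR adjusted p = 0.089). On day 15 the groups held 0 and 16 reads, again without a call (edgeR adjusted p = 0.54).

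MA_10431300g0020 had the largest fall in CPM. It was at 1625, 1989 and 1994 CPM with BAP+IAA and at 7312, 4906 and 5705 CPM with BAP. The log2 change was -1.68 ± 0.22 (SE; edgeR adjusted p = 1.6e-06), or 3.11-fold lower. With IAA alone it held 1670, 1991 and 1085 CPM, against 13659, 11573 and 13420 CPM in Mock, 7.87-fold lower. BAP+IAA and IAA libraries overlapped in level, and BAP libraries lay below all Mock libraries. The effect of IAA was less negative with BAP than without it by 1.35 ± 0.30 on the log2 scale (SE; edgeR adjusted p = 0.0022). The fall was also called at 10 and 15 days, at -0.88 ± 0.21 and -0.84 ± 0.21 (SE; edgeR adjusted p = 0.0034 and 0.007).

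**Figure D2:**
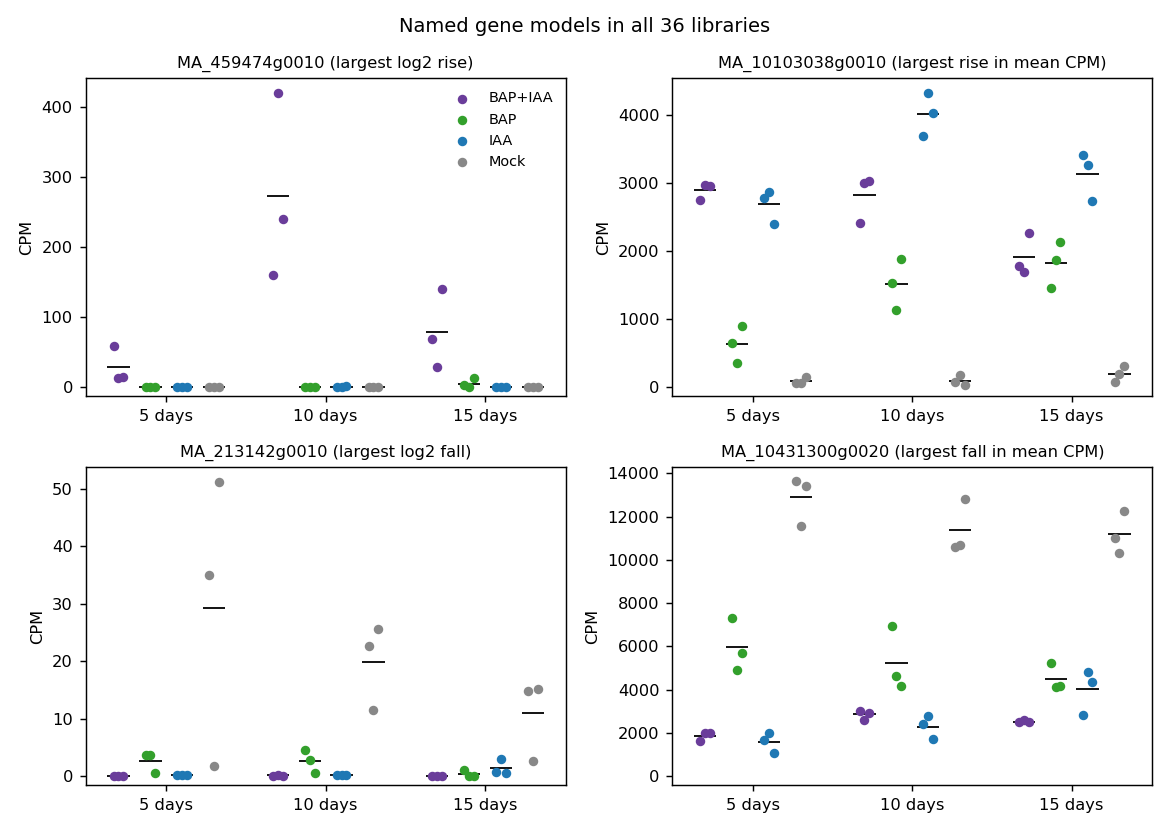
CPM of 4 gene models in every library, with 3 points per group, a line at the mean, and the days from left to right (linear axes from 0). MA_10103038g0010 was at 2745 to 2978 CPM with BAP+IAA at 5 days, near IAA and above BAP at 360 to 906 CPM. MA_10431300g0020 was at 1625 to 1994 CPM with BAP+IAA, below BAP at 4906 to 7312 CPM and Mock at 11573 to 13659 CPM.

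The 20 models with the largest fitted log2 rises among called models with at least 1 CPM and groups that did not overlap had mean levels of 4.40 to 126 CPM with BAP+IAA and at most 0.212 CPM with BAP. Of these, 19 had no read with BAP. Their folds from summed reads, with a group under 3 reads set to 3, reached 696, above the 417 of MA_459474g0010. At 11 of the 20 no Mock library held a read at 5 days, and at 7 no IAA library did. IAA against Mock was called higher at 4 of them, no larger a share than the 23.1% of all tested models. BAP+IAA against BAP was called higher again at 16 on day 10 and at 13 on day 15, against 11.7% and 8.96% of all models. Replicate 1 was the highest BAP+IAA library at 11 of the 20. The 20 largest falls had at most 2.47 CPM with BAP+IAA and 2.10 to 74.2 CPM with BAP, and their folds reached 83.6, above the 44.0 of MA_213142g0010. Only 2 of them had no read with BAP+IAA. IAA against Mock was called lower at 14 (24.1% of all models), and the fall was called again at 16 on day 10 (9.07%) and at 14 on day 15 (6.18%).

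Whether BAP altered the response to IAA was asked by setting this comparison beside IAA against Mock at 5 days, which shares no library with it. IAA against Mock called 18023 models (47.1%), 8824 higher and 9199 lower. Of the 5200 models higher with IAA added to BAP, 3442 (66.2%) were also higher with IAA alone, where 23.1% of all tested models were. Of the 4462 models lower with IAA added to BAP, 3350 (75.1%) were lower with IAA alone, where 24.1% of all models were. Read the other way, 39.0% of the models raised and 36.4% of those lowered by IAA alone were called in the same direction with BAP present. Over all 38239 models the log2 changes of the comparisons correlated at r = 0.654. The libraries of both came from one collection day, and models with few reads add noise to both.

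**Figure D3:**
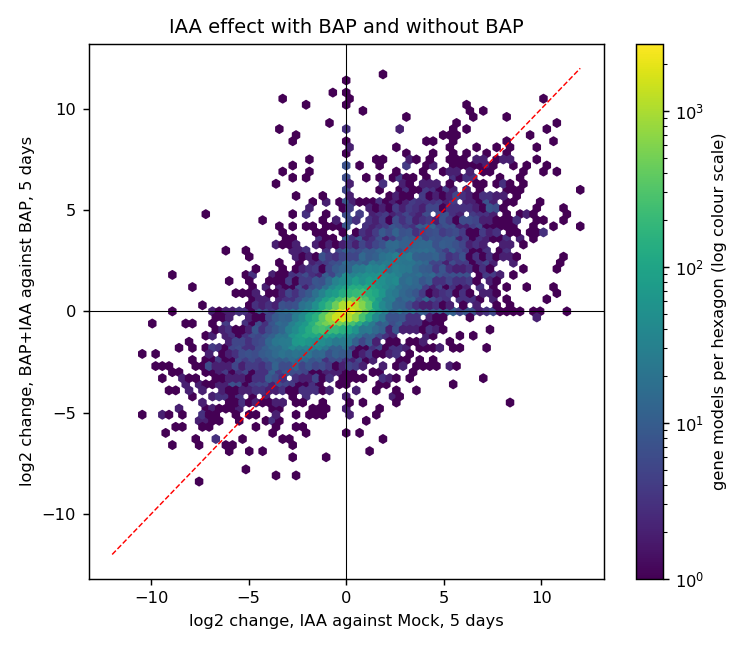
Log2 change with IAA added to BAP (vertical axis) against log2 change with IAA against Mock (horizontal axis) at 5 days for 38239 gene models, with hexagons coloured by the number of models on a log scale. The dashed red line marks equal changes. The cloud of models slopes upward (r = 0.654), and narrow bands at 0 on either axis hold models with a fitted change in a single comparison. A model without a read in either group of a comparison is also fitted at 0 there, so the bands do not show an absence of response.

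The size of the IAA effect with and without BAP was compared by the test of the difference itself. It was called at 6184 models (16.2%), more positive with BAP at 8.20% of all models and more negative at 7.98%. Among the 3442 models higher in both comparisons, the rise was smaller with BAP at 480 and larger at 55. Asking for a call in both comparisons leaves out models called in a single one, so this split partly follows the choice. Over all 5200 models higher with IAA added to BAP, the effect was more positive with BAP at 617 (11.9%) and smaller at 480 (9.23%). The comparison that chose the 5200 is part of the difference, so the choice favours a more positive difference. The number 55 rested on single libraries and was 21 to 36 without any one of BAP+IAA replicate 3, BAP replicate 2, IAA replicate 2 or 3, and Mock replicate 2 or 3. Among the 3350 models lower in both, the fall was smaller with BAP at 750 and larger at 11. Over all 4462 models lower with IAA added to BAP, the effect was less negative with BAP at 750 (16.8%) and more negative at 343 (7.69%). For these models the choice favours a more negative difference. The number 750 was 476 without BAP replicate 2, and 11 was 4 to 7 without any one of BAP+IAA replicate 3, BAP replicate 3, Mock replicate 1 or 2, and any IAA library. The median log2 change of the 3442 models was 1.26 with BAP and 1.42 without, and that of the 3350 models was -0.881 with BAP and -1.33 without. At 10 days, in libraries that chose neither set, the medians were 0.621 with BAP and 0.861 without for the first set, and -0.493 and -0.840 for the second. At 15 days they were 0.480 and 0.719, and -0.391 and -0.665.

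Other models were called with BAP present and either not called, or called the opposite way, with IAA alone. IAA alone gave no call at 1591 of the 5200 higher models (30.6%), with a median log2 change of 1.14 with BAP and 0.221 without. The difference was called at 395 of them, so most models without a call for IAA alone had no call for the difference either. At 167 models (3.21% of the higher ones) IAA raised the level with BAP present and lowered it against Mock. IAA against Mock was called lower at 24.1% of all tested models. At 135 models (3.03% of the lower ones) the signs were the other way, where IAA alone was called higher at 23.1% of all tested models. Opposite calls were thus rarer in both sets than among all models. The number 167 was 100 without BAP replicate 2. The number 135 was 64 without BAP replicate 3 and 86 without BAP+IAA replicate 3. In the 167 the median log2 changes at 5 days were 0.649 with BAP and -0.642 without, and on the days that did not choose them 0.278 and -0.363 (day 10) and 0.222 and -0.253 (day 15). The 135 had medians of -0.475 with BAP and 0.600 without at 5 days, -0.124 and 0.261 on day 10, and -0.179 and 0.0873 on day 15. All told, the effect of IAA was more positive with BAP at 617 of the higher models (11.9%, against 8.2% of all tested models). The number 617 was 406 without BAP replicate 2. At 343 of the lower models the effect was more negative with BAP (7.69%), no larger a share than the 7.98% of all tested models. The number 343 was 186 without BAP replicate 3, 209 without BAP+IAA replicate 3 and 547 with total counts. Both numbers partly follow the choice, since the comparison that chose the sets is part of the difference.

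The levels of the called sets placed BAP+IAA near IAA, and BAP near Mock. Over the 5200 higher models the median level per library was 16 to 18.8 CPM with BAP+IAA, 6.39 to 7.56 CPM with BAP, 15.5 to 17.0 CPM with IAA and 6.29 to 7.48 CPM with Mock at 5 days. Over the 4462 lower models it was 7.73 to 8.22 CPM with BAP+IAA, 13.7 to 14.9 CPM with BAP, 7.32 to 8.16 CPM with IAA and 15.7 to 16.6 CPM with Mock. In the lower set BAP libraries lay below all Mock libraries, and in the higher set they overlapped with Mock. The BAP+IAA and BAP libraries chose the sets, and the IAA and Mock libraries did not. Models not called had medians of 4.25 to 4.37 CPM with BAP+IAA and 4.31 to 4.36 CPM with BAP.

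On later days the BAP libraries moved away from Mock in these sets, chosen at 5 days. In the higher set the BAP median averaged 7.01 ± 0.59, 9.24 ± 0.87 and 11.4 ± 0.85 CPM on days 5, 10 and 15 (SD, n = 3 each). The BAP+IAA median was 17.3 ± 1.4, 15.9 ± 1.5 and 17.0 ± 0.32 CPM on the same days, and the Mock median 7.03 ± 0.64, 7.57 ± 0.30 and 7.80 ± 0.25 CPM. In the lower set the BAP median was 14.3 ± 0.60, 13.1 ± 1.2 and 11.9 ± 0.92 CPM, and the BAP+IAA median 8.02 ± 0.26, 9.18 ± 0.37 and 9.06 ± 0.18 CPM. The Mock median in the lower set was 16.2 ± 0.46, 16.1 ± 0.31 and 15.8 ± 0.23 CPM. The pattern depended on the day that chose the set. Over the 3427 models called higher at 15 days, the middle library's median was 14.1, 16.6 and 17.8 CPM with BAP+IAA on days 5, 10 and 15, against 6.97, 7.58 and 8.10 CPM with BAP. Mock libraries were at 7.39, 7.21 and 7.58 CPM, so that in this set BAP stayed near Mock and BAP+IAA was higher on the later days. Over the 2365 models called lower at 15 days, BAP was at 14.4, 14.3 and 14.3 CPM and Mock at 18.5, 19.2 and 20.2 CPM. In that set BAP thus lay below Mock on every day, and BAP+IAA was at 9.08, 8.11 and 7.69 CPM.

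**Figure D4:**
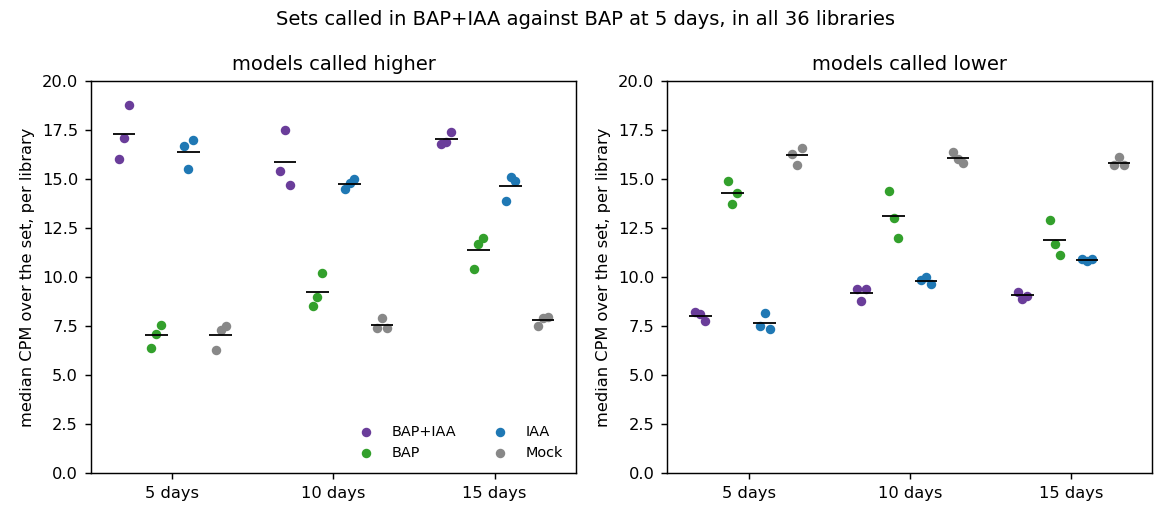
Median CPM of the 5200 models called higher (left) and the 4462 called lower (right) in BAP+IAA against BAP at 5 days, 1 point per library and a line at each group's mean, for 4 treatments on 3 days. At 5 days BAP+IAA lies with IAA and BAP with Mock on the left, and the BAP points climb with the days, at 10.4 to 12 CPM by day 15.

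The comparison of BAP+IAA with BAP was repeated on later days to ask whether the effect lasted. On day 10 it called 7946 models (20.8%), 4478 higher and 3468 lower. On day 15 it called 5792 (15.1%), 3427 higher and 2365 lower. The 15-day total was 3847 without BAP+IAA replicate 3 (1508 lower), and its higher models numbered 2283 without BAP replicate 1. Total counts gave 3396 higher and 4963 lower models on day 10, and 2802 higher and 2984 lower on day 15. These contrasts share no library with the 5-day one. Of the 5200 models higher at 5 days, 49.1% were called higher on day 10 and 37.7% on day 15, against 11.7% and 8.96% of all models. Of the 4462 lower models, 41.7% and 28.8% were called lower again, against 9.07% and 6.18% of all models. A change on all 3 days was called at 1640 higher and 1050 lower models, while 2274 and 2306 were called at 5 days alone. The direction was kept more often than the call: 88.7% of the higher and 88.6% of the lower models kept their sign at 10 days, and 86% and 85.6% on day 15.

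Sets chosen on one day showed smaller changes on the others, whichever day chose them. The models called higher at 5 days had a median log2 change of 1.17 on that day, 0.538 at 10 days and 0.418 at 15 days. Those called higher at 15 days had 0.739 at 5 days, 0.829 at 10 days and 1.03 at 15 days. For lower models the 5-day set had -0.821, -0.436 and -0.349, and the 15-day set -0.560, -0.692 and -0.846. Every set was thus farthest from 0 on the day that chose it. Across all models the 5-day changes correlated at r = 0.616 with those at 10 days and 0.547 with those at 15 days, and the later days at 0.704 with each other.

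**Figure D5:**
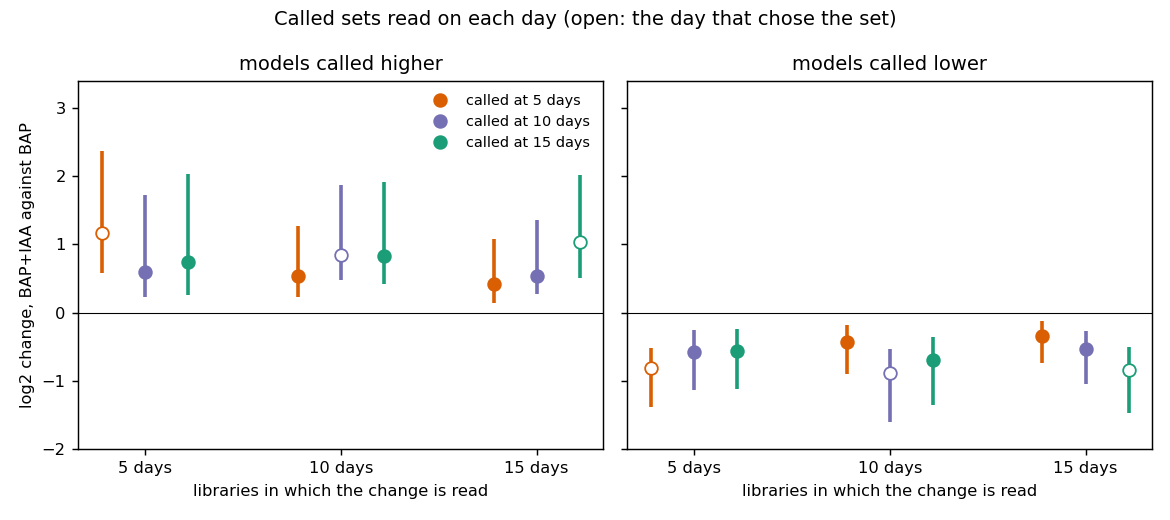
Median log2 change (points) and the middle 50% of models (lines, from the 25th to the 75th percentile) for BAP+IAA against BAP on each day, for sets called higher (left) or lower (right) at 5, 10 or 15 days, with open points on the day that chose the set. Each set is farthest from 0 on its own day, for example 1.17 at 5 days for the 5-day higher set against 0.538 at 10 days.

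The change of the effect with time was then tested directly. Between 5 and 10 days it was called at 785 models (2.05%), with a higher effect later at 336 (0.879%) and a lower one at 449 (1.17%), and between 5 and 15 days at 1395 (3.65%). The 10-day number was 363 without BAP replicate 1, 415 or 426 without BAP+IAA replicate 2 or 3 at 5 days, and 485 and 330 without BAP replicate 2 or BAP+IAA replicate 3 at 10 days. The 15-day number was 821 without BAP replicate 1 and 803 without BAP+IAA replicate 3 at 5 days, and 876 or 915 without BAP replicate 2 or 3 at 15 days. At 449 models the effect was lower at 10 days, with a median log2 effect of 1.23 at 5 days and -0.269 at 10 days. Between these days BAP+IAA libraries fell at 257 of them (4.08% of all models did) and BAP libraries rose at 156 (1.79%), with median log2 changes over the 449 of -0.861 in BAP+IAA and 0.641 in BAP. At 854 of the 1395 models (2.23% of all tested) the effect was lower at 15 days, and 717 of these had been called higher at 5 days. Their median log2 effect was 1.51 at 5 days and -0.0264 at 15 days. From 5 to 15 days BAP+IAA libraries fell at 389 of them (10.5% of all models did) and BAP libraries rose at 525 (12.6%), with median log2 changes over the 854 of -0.461 in BAP+IAA and 0.981 in BAP. At the 541 models (1.41%) where the effect was higher at 15 days, 405 had been called lower at 5 days. There BAP+IAA libraries rose at 412 (12% of all models) and BAP libraries fell at 172 (9.84%), with median log2 changes over the 541 of 0.731 in BAP+IAA and -0.308 in BAP. The change of effect that chose these models is the difference of the changes within each treatment, so these shares describe the choice.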

How the data were processed

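RNA sequencing read counts were analysed. The authors deposited raw counts per gene model, not normalised. Per the submitters' processing notes, the tools included HTSeq, STAR and Trimmomatic, without versions. The build, the annotation and the use of strand were not given in the sources used here, so reads of overlapping, antisense or near-identical models may be shared or lost. All 36 columns were mapped to samples by replicate, hormone and collection number. That number was read as the order of days, which the table does not state, so every day given rests on that reading.

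Models were filtered with filterByExpr (edgeR 4.0.16, R 4.3.3), leaving 38239 of 70736 models, and scaled by TMM (factors 0.944 to 1.07). The quasi-likelihood fit (robust, bias-adjusted deviance) took in all 36 libraries with a mean for each of 12 groups, leaving 24 residual degrees of freedom. Each contrast uses its own group means, so no Mock mean enters BAP+IAA against BAP. Mock and the other libraries still enter the filter on low counts, the scaling and the estimate of spread. They thus bear on which models were tested. Tests were 2-sided with Benjamini-Hochberg adjustment over all 38239 models, called at 0.05. Library totals ran from 12531117 to 22280720 reads, and floors of 3 counts cover counting error only. The fit was also run on simulated data with few changed models, as many raised as lowered. Changes as many and as unequal as those called here were not simulated.

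Among called models with groups that did not overlap and at least 1 CPM, the largest rise and fall by fitted log2 change and by CPM were named. The comparison, sets and rules were chosen with earlier results of these data known. Contrasts over time within BAP and within BAP+IAA were added after seeing the data. Alternatives were RLE factors, total counts, no filter, at least 1 CPM in 3 libraries, DESeq2 1.42.0, only the groups of each contrast, a replicate block, and leaving out each library. An earlier edgeR deviance was added later.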

Additional observations from a re-analysis of the deposited data

Results flagged for a closer look

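The effect of adding IAA to BAP differed between days and from the effect of IAA without BAP, each by a test of the difference itself. The effect at 10 days differed from that at 5 days at 785 models, and the effect at 15 days from that at 5 days at 1395 models. The effect of IAA with BAP differed from that without BAP at 6184 models at 5 days. Of the 4 models followed by identifier, MA_10103038g0010 had a less positive effect with BAP (log2 difference -2.67) and MA_10431300g0020 a less negative one (log2 difference 1.35). Groups of 3 libraries are too small for a search for outlying samples.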

How the results depend on the processing

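The 9662 calls at 5 days were 6993 to 8550 when a library was left out and 7497 to 10121 under the other settings. Of all values recomputed under other settings or without a library, 967 stayed within the limits set for them, 105 moved by more and 5 lost their call. No log2 change among them reversed in sign. Counts and folds cannot change sign, so that check could not show a reversal for them. With total counts the excess of rises over falls became an excess of falls at 5 days (4479 higher, 5602 lower). The same held at 10 days (3396 and 4963) and at 15 days (2802 and 2984).

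Fitting only the groups of a contrast gave 5078 models at 10 days (2920 higher, 2158 lower) and 3097 at 15 days (1909 and 1188). The same fit gave 323 (119 and 204) for the change of effect by 10 days and 816 (234 with a higher effect) by 15 days. Shared with 5 days were then 1687 higher and 1091 lower models at 10 days, and 1198 and 681 at 15 days. Models lower with IAA added to BAP and higher with IAA alone numbered 63 in that fit and 240 with total counts, and those of the reverse kind 103 with no filter. DESeq2 gave 1521 models (615 and 906) for the change by 10 days. With at least 10 reads per library, 65 models had no read in BAP and 3 none in BAP+IAA.

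Leaving out a library gave 3847 to 5116 models at 15 days (2283 to 2945 higher, 1508 to 2379 lower). The change by 10 days ranged over 330 to 1011 (151 to 457, 179 to 666) and by 15 days over 803 to 1597 (289 to 669, 500 to 928). Models opposite to IAA alone ranged over 100 to 165 and 64 to 186, and those without a read over 196 to 274 and 53 to 70.

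Deviations of libraries with the same replicate number correlated at 0.11, -0.003 and 0.16 at 5 days. Numbers 1 and 3 correlated best with their own number and number 2 did not, so the numbers were not taken as pairs. The second principal component (11.3% of variance) ordered the numbers alike in both groups, at 37.4, 5.29 and -23.7 with BAP+IAA and 52.8, -6.68 and -65.1 with BAP, a hint from the data and not the design. With a replicate block, 10121 models were called at 5 days (5520 higher, 4601 lower), and 682 had a lower effect at 10 days. The cause of these movements was not tested. Depth limits models with few reads most.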

Other observations

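Gene models whose identifiers share the part before the g and follow each other in number changed together. There were 2261 such pairs among the tested models. In 299 both members were called in BAP+IAA against BAP at 5 days, 164 of them both higher, 113 both lower and 22 in opposite directions. Thus 92.6% had the same direction. Of all called models 53.8% were higher, which is not itself the share of unrelated pairs that would agree. The next model was called in 49.5% of pairs whose first model was called and in 16.7% of the others, against 25.3% of all models. The log2 changes of the pairs correlated at r = 0.63. Such models may be neighbouring genes or pieces of one gene, and reads can be split between pieces. Which of these applies was not tested.

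The changes that moved the most reads were mostly seen with IAA alone as well. The 20 models with the largest rises in CPM, 1.21-fold to 27.7-fold, held 3.13 to 3.39% of reads with BAP+IAA and 1.43 to 1.62% with BAP. IAA against Mock was called higher at 16 of them (23.1% of all models) and lower at 2 (24.1%). The 20 with the largest falls in CPM, 1.22-fold to 6.11-fold, held 1.81 to 1.98% of reads with BAP+IAA and 3.96 to 5.01% with BAP, and IAA against Mock was called lower at 19 and higher at 1. The rises were called again at 13 models on day 10 and 7 on day 15, against 11.7% and 8.96% of all models, and the falls at 13 and 9, against 9.07% and 6.18%. The share of models called grew with reads at 5 days. Shares over all models are therefore not a like background for these models, which were picked by change in CPM.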
